A study of Homo sapiens with 3 samples.

Results

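PHF13 peaks that overlapped an EZH2 peak were collected beside the large gaps of the hg19 assembly. A peak was a member when it shared at least 1 bp with an EZH2 peak and lay less than 1 Mb from a run of unknown bases of at least 1 Mb, so the members were chosen by the 2 peak calls themselves and by position. This gave 978 of the 2230 shared PHF13 peaks, out of 19039 PHF13 peaks in all, and their partners were 971 distinct EZH2 peaks of 21639. The peaks came from wild-type PANC-1 cells, a line derived from a human pancreatic ductal carcinoma, with no treatment given in the labels. There was 1 ChIP-seq library made with rabbit polyclonal antibodies against PHF13 that had been produced for the study, 1 with an antibody against EZH2, and 1 from input DNA. Cells had been crosslinked with EGS, then paraformaldehyde and formaldehyde. With 1 library per antibody replicate spread is unknown and no p-value is given, and intervals (95%) cover counting error only. They take each peak as independent, although many members are copies of one another or close neighbours, so they are likely too narrow.

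PHF13 (also called SPOC1) carries a PHD finger that reads methylated lysine 4 of histone H3. EZH2 is the catalytic subunit of Polycomb repressive complex PRC2, which methylates lysine 27 of the same histone. The largest gaps of hg19 stand for centromeres, for blocks of heterochromatin next to them and for the short arms of acrocentric chromosomes. The sequence that borders them is rich in satellite DNA: alpha satellite, whose units are longer than the DNA on a nucleosome core and which in part carries a binding site for the centromere protein CENP-B, and human satellites 2 and 3, which are built from a repeated pentamer, GGAAT on one strand and ATTCC on the other. Such arrays are held in the assembly in fewer copies than in a cell, and many reads from them fit several places equally well.

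The summits were first read as sequence, since repeats were more frequent at members than at the other peaks beside the same gaps. All sequences below are reference sequence of hg19, written on the plus strand unless stated. The member with the highest fold enrichment for both proteins lay on the long arm of chromosome Y, and 24 copies of GGAAT, in capitals, filled most of the 150 bases around its summit. A second pentamer array on chromosome 10 was more diverged, with 10 exact copies.
chrY:13842665-13842814: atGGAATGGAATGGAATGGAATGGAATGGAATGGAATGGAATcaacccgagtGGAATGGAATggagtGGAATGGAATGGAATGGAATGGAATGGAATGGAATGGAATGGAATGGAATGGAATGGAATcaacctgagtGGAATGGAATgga
chr10:39128784-39128933: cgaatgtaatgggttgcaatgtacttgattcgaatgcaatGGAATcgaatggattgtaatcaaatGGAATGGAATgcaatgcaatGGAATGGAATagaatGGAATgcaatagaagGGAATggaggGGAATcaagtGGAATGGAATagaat
The PHF13 fold was 35.8 at the first and 16.3 at the second, and the EZH2 fold was 32.3 and 17.4.

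The most frequent repeat had the period of an alpha satellite unit or a multiple of it, and is called alpha-length below (the blue class named by its length in bp in the plots). Adjacent units at a member on chromosome X show the period. The capitals mark the 134 positions at which both units hold the same base. The peak was the strongest of its class in which at least 70% of positions were identical without a shift, and its fold was 14.9 for PHF13 and 12.4 for EZH2.
chrX:61815001-61815171: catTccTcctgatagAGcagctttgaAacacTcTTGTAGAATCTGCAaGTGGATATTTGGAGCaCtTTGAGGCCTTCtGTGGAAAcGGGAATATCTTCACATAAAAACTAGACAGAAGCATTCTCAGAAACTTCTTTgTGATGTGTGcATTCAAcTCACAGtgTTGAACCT
chrX:61815172-61815342: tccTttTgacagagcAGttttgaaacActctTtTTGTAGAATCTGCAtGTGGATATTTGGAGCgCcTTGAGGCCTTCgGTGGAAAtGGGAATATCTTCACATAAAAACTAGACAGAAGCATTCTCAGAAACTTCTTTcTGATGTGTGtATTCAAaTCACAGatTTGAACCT

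Part of these units held the core of the CENP-B box, searched on both strands by its name as the fixed bases of that motif. It is in capitals in 3 members, the strongest of 3 chromosomes with a box in the 100 bp around the summit. The stretches from chromosomes 1 and 10 are written on the minus strand so that the box reads the same way in all.
chr1:121458810-121458889: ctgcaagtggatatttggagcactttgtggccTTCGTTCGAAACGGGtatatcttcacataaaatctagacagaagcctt
chr12:34841530-34841609: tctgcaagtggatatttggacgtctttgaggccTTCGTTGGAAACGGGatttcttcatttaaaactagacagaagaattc
chr10:42546002-42546081: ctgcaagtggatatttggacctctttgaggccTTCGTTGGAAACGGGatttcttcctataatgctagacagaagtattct
The PHF13 fold at these 3 peaks was 9.50, 7.63 and 6.93, and the EZH2 fold was 10.3, 7.64 and 7.44.

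A further class had periods of 23, 26 or 49 bp and a GC content under 50%. It was set apart after the data were seen. The strongest such member lay on chromosome 7, and 34 of 49 positions, in capitals, were identical in 3 adjacent units at it, which also hold copies of the pentamer.
chr7:61794528-61794576: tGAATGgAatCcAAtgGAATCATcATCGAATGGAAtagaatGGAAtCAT
chr7:61794577-61794625: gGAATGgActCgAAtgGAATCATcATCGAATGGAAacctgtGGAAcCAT
chr7:61794626-61794674: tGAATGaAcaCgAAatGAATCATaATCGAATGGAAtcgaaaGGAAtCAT
The smallest class had a best period near 68 bp or a multiple of it. The best period was 68 or 69 bp at 6 of its 19 members, 137 to 273 bp at 5 and 336 or 337 bp at 8, and the last also lies close to a multiple of the alpha-length unit, so for these the assignment to the class is uncertain. In a member on chromosome Y, the strongest with at least 60% identical positions, 46 of 68 positions agreed between 2 units.
chrY:13474366-13474433: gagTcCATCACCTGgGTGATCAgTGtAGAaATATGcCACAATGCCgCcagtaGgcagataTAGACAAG
chrY:13474434-13474501: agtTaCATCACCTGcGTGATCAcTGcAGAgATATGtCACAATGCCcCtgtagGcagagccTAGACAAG

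By these periods, 383 of the 978 members (39.2%, exact binomial interval 36.1 to 42.3) had an alpha-length period, 76 (7.77%) had pentamer repeats with a best period of 5 bp or a multiple of it (5 bp at 42 and 15 bp at 17), here called the 5 bp class, 87 (8.90%) one of 23, 26 or 49 bp and 19 (1.94%) one near 68 bp or a multiple of it. Another 27 had other periods, among them units of 147 bp, whose strongest member on chromosome 4 had folds of 7.54 and 7.21. The remaining 386 (39.5%) were counted as having no repeat: at 385 no period reached 50% identity over the 1000 bp around the summit, and 1 could not be read. A tandem repeat was thus found at 60.5% of members (57.4 to 63.6), and at 37.7% when 60% identity was required. Beside the same gaps, it was found at 24.6% of the 712 PHF13 peaks without an EZH2 partner, at 19.4% of the 618 EZH2 peaks without a PHF13 partner, and in 13.7% of 43787 windows of 1 kb that tiled the sequence there. The difference from PHF13-only peaks was 35.95 percentage points (31.4 to 40.2) and from EZH2-only peaks 41.1 (36.6 to 45.3). At 60% identity the shares were 16.7% of PHF13-only peaks, 12.6% of EZH2-only peaks, 7.51% of windows and 21.2% of shared peaks elsewhere, a comparison added after seeing the data. At 50%, shared peaks elsewhere in the genome had a tandem repeat at 27.6% of 1252 summits, and there other periods made up most of it (21.4%).

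**Figure D1:**
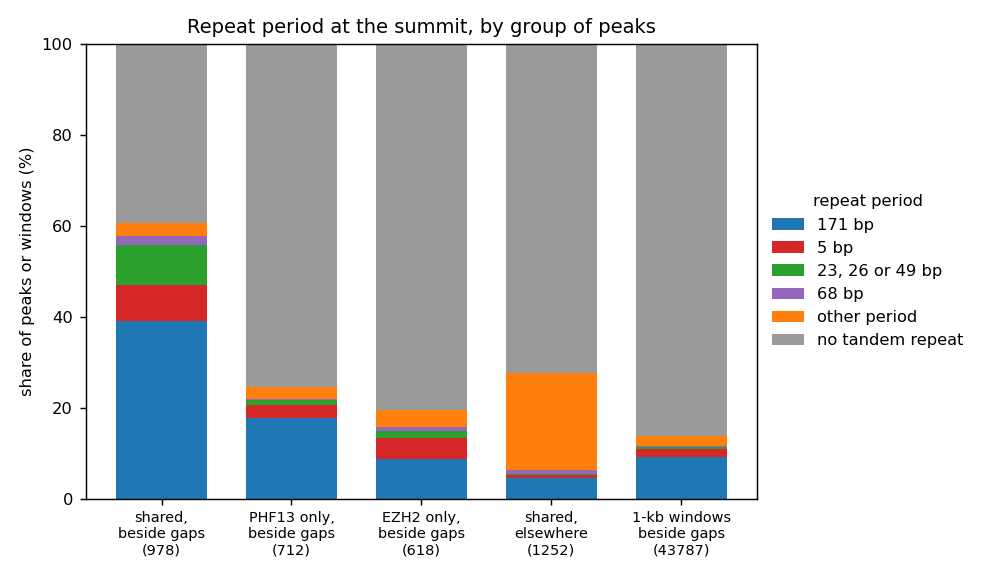
Share of peaks or 1-kb windows (%) with each repeat period at the summit or window, for members, for unshared peaks beside the same gaps, for shared peaks elsewhere and for all windows beside the gaps; numbers in parentheses count peaks or windows. The alpha-length period takes 39.2% of the members, 17.8% of PHF13-only and 8.74% of EZH2-only peaks, and 9.06% of windows.

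The surplus of tandem repeats over PHF13-only peaks was found again among peaks of like distance and of like background, except at the highest background. Under 50 kb from the gap, 322 of 369 members (87.3%) and 66 of 102 PHF13-only peaks (64.7%) had one, a difference of 22.6 points (13.2 to 32.7). From 250 to 1000 kb the shares were 39.3% of 313 and 12.7% of 385, a difference of 26.6 points (20.1 to 32.8). Where the local background, which is explained below, was under 2 times its floor, 47.7% of 285 members and 23.4% of 440 PHF13-only peaks lay in a repeat, a difference of 24.3 points (17.2 to 31.2). At 10 times the floor or more the shares were 83.2% of 298 and 80.0% of only 20, and the interval of the difference (-9.59 to 25.2 points) held 0. For the alpha-length period alone, the surplus was not resolved nearest the gap or at the highest background. Under 50 kb the shares were 63.4% of members and 52.9% of PHF13-only peaks, a difference of 10.5 points (-0.19 to 21.2). At 10 times the floor or more they were 53.02% and 65%, a difference of -11.98 points (-29.8 to 10.4). In the other splits the interval lay above 0. The differences there ran from 6.21 points (250 to 1000 kb) to 18.8 (2 to 10 times the floor). These splits were chosen after the data were seen. The intervals take each peak as independent, although many members are copies or neighbours, so what they resolve is uncertain.

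Read the other way, the class of sequence went with how often a PHF13 peak beside a gap was shared. Of PHF13 peaks there, 75.1% of 510 with an alpha-length period (71.1 to 78.8), 80.0% of 95 with a 5 bp period, 91.6% of 95 with a 23, 26 or 49 bp period and 41.8% of 923 without a repeat (38.6 to 45.1) overlapped an EZH2 peak. Away from gaps, 58 of 74 peaks with an alpha-length period (78.4%) and 8 of 9 with a 5 bp period were shared, against 5.39% of 16794 peaks with no repeat. In all, 57.9% of the 1690 PHF13 peaks beside gaps (55.5 to 60.2) were shared, against 11.7% of the whole PHF13 list and 7.22% away from gaps. For EZH2 the share was 61.4% of 1603 peaks beside gaps, against 10.3% of the whole list. The share beside gaps also rose with −log10 q, the significance of the PHF13 call, from 14.1% of 213 peaks under 3 to 100% of 186 at 50 or more. Its median was 16.1 at members and 4.45 at PHF13-only peaks beside gaps. Among members it was 26.5 in the alpha-length class and 8.93 without a repeat. Classes were not compared at like −log10 q, so sequence and strength of the call are not separated here. That the members are shared is their definition, and these values describe it.

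CENP-B is a protein that binds part of the alpha satellite units. A box core stood within the 1000 bp around the summit of 198 of the 383 members with an alpha-length period (51.7%, 46.6 to 56.8). It stood in 27.6% of 127 PHF13-only peaks and 14.8% of 54 EZH2-only peaks of that class, and in 12.3% of 3968 windows of that class (11.3 to 13.4). At shared peaks of that class elsewhere it stood in 23 of 58 (39.7%, 27.0 to 53.4), an interval that overlaps that of the members. Over windows of every class beside gaps the share was 1.48%. A match describes the letters of the window, and binding of CENP-B was not measured.

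The classes also differed in base composition. The CpG observed/expected ratio over 500 bp had a median of 0.35 in all members and of 0.35 in the alpha-length class. It was 0.73 in the 5 bp class and 1.27 in the class of 23, 26 or 49 bp (quartiles 1.16 and 1.40), which also held a median of 24 copies of the pentamer in 500 bp. In members with no repeat it was 0.23. PHF13-only peaks beside gaps had a median of 0.20 and windows of 0.17, while shared peaks elsewhere had one of 0.32 (0.30 to 0.34), whose interval overlaps that of the members (0.32 to 0.37). The median GC content was 36.2% in the 23, 26 or 49 bp class, 38.0% in the alpha-length class, 40.8% in the 5 bp class and 42.6% without a repeat.

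Most members lay in sequence that the assembly holds several times. The median 24-mer within 100 bp of the summit occurred more than once at 879 of 977 members (89.97%, 87.9 to 91.8), with a median of 8 copies. Over all 24-mers there, a median of 84.98% of their occurrences lay beside large gaps. This counts the member's own place, which lies beside a gap by definition. The same median was 76.98% for windows, 75.5% for EZH2-only peaks and 74.8% for PHF13-only peaks there. One member could not be read, because the reference used here masks its place at the end of chromosome Y. PHF13-only peaks beside gaps were multi-copy in 82.4% and EZH2-only peaks in 75.2%, while windows were in 53.8%. Shared peaks elsewhere were multi-copy in 76.6% of 1250, so this trait was not particular to the members, and all PHF13 peaks were in 33.9%. More than 100 copies were found at 6.35% of members, against 7.63% of windows, a difference of -1.28 points (-2.67 to 0.44).

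Many members were copies of one another, so they are not independent observations of a site. At 477 of the 978 (48.8%), at least 20% of the 24-mers in 200 bp were shared with another member, and these made up 99 families. Over more than 1 chromosome spread 34 families with 226 members. The largest held 46 peaks on chromosomes 2, 4, 10, 20, 21 and Y, 45 of them pentamer repeats. The second held 36 peaks on chromosomes X and 11 with a median fold of 2.90 and a median background of 80.9 fragments. The third was the most widespread, with 35 peaks on 13 chromosomes, 34 of them with an alpha-length period, a median fold of 5.32 and a background of 9.26. Its members on chromosomes 7 and 10 shared a stretch of 85 bases, in capitals, which was the longest that 2 of its members on different chromosomes shared in the 200 bp around their summits.
chr7:61978382-61978506: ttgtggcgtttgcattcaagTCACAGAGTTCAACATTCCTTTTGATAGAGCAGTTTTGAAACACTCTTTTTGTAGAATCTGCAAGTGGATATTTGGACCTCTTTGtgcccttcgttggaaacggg
chr10:42404513-42404637: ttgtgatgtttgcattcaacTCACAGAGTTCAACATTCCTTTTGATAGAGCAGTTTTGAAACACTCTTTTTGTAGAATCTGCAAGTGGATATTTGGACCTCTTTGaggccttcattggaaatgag
The PHF13 fold was 4.08 at the first and 3.54 at the second, and the EZH2 fold was 3.61 and 3.21. A read wholly within that stretch would fit both places equally well, while one that reached the flanks would meet bases that differ. The length of the reads was not examined.

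PHF13 and EZH2 gave nearly the same fold at most members. Fold enrichment is the number of fragments over the summit plus 1, divided by the local background plus 1. Its median was 3.69 for PHF13 (interval 3.60 to 3.80, quartiles 2.83 and 4.94) and 3.72 for EZH2 (3.63 to 3.83, quartiles 2.89 and 4.85). Within each pair, the log2 ratio of EZH2 over PHF13 fold had a median of 0.02 and quartiles of -0.14 and 0.13, and it lay within 0.5 of 0 at 912 members (93.3%). The EZH2 fold was above the PHF13 fold at 536 members. The summits of a pair were a median of 15 bp apart (13 to 16), against 35 bp (33 to 40) at shared peaks elsewhere. They were on the same base at 22 members and within 100 bp at 853 (87.2%). The methods name the input as control, so the folds of a pair draw on 1 shared measurement of background. At 32 members both fragment numbers were the highest of their list, and there the folds follow from the backgrounds alone. A member also had to be called in both lists. The fold ratio was not computed at shared peaks elsewhere, so its closeness cannot be called particular to the members.

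**Figure D2:**
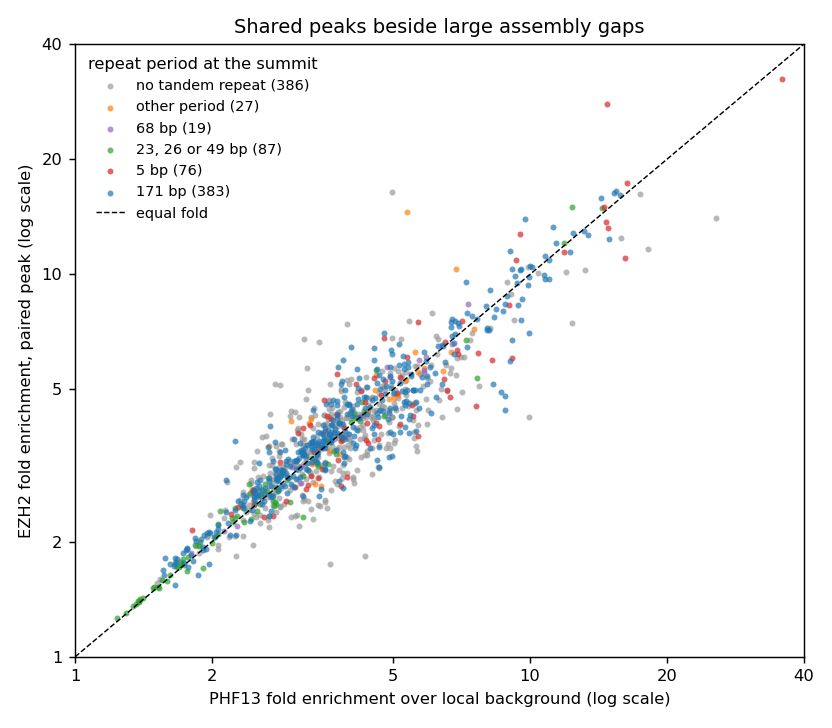
PHF13 fold enrichment (x, log scale) against the fold of the paired EZH2 peak (y, log scale) for the 978 members, coloured by repeat period, with a dashed line at equal fold. Points follow the line from 1.24 up to 35.8, and 93.3% lie within 0.5 log2 units of it.

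A few members departed from this. The EZH2 fold was more than 2 times the PHF13 fold at 3. At chr18:15165426-15165620, 106 bp from the start of the long noncoding gene ENSG00000287723, EZH2 reached 16.4 and PHF13 4.97, with 181 and 40 fragments. At chrY:13263533-13263690 the folds were 6.78 and 3.19, and the remaining one, a period of 42 bp on chromosome 8, had 14.6 and 5.36. The PHF13 fold was more than 2 times the EZH2 fold at another 3. At chr21:10492865-10493058 the folds were 9.95 for PHF13 and 4.24 for EZH2, from 51 and 22 fragments over 4.23 and 4.42. At the other two, both on chromosome 2, PHF13 had 47 and 41 fragments over backgrounds of 10.1 and 10.6, and EZH2 had 125 and 107 over 67.6 and 61.0. There the EZH2 list held more fragments and the lower fold. These 6 were picked by their values.

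Counted over all members, the fragments at a summit and the background beneath it were high. The median PHF13 summit held 69 fragments (61 to 80, quartiles 36 and 199) over a background of 15.4 (13.8 to 17.8), where the background is the number that the input leads one to expect at that place. The median EZH2 summit held 73 over 15.6. PHF13-only peaks beside the same gaps held 27 fragments over 6.998, and shared peaks elsewhere 36 over 7.21. With 1 peak per locus (peaks merged within 10 kb, the one of highest PHF13 fold kept), the members held 39 over 7.24. Fold is a ratio over background, so this choice by itself favours low backgrounds. Shared peaks elsewhere were not thinned in this way, so the 2 sets cannot be compared. The lowest background in the PHF13 list was 4.23, the genome-wide floor. A background of at least 10 times the floor lay under 298 members (30.5%, 27.6 to 33.5) and under 2.81% of PHF13-only peaks, 2.75% of EZH2-only peaks and 3.35% of shared peaks elsewhere. Of the PHF13 peaks beside gaps with such a background, 93.7% were shared (90.5 to 96.1), against 39.3% of those under 2 times the floor (35.7 to 43.0). The EZH2 background at a member was a median of 0.955 times the PHF13 background (quartiles 0.891 and 1.04), and the 2 were within 0.5 log2 units at 96.4% of members. The part of input abundance in the sharing of peaks was not tested.

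The number of fragments stopped at a ceiling. No PHF13 summit held more than 288 fragments and no EZH2 summit more than 300. Exactly 288 were at 58 PHF13 peaks (0.305% of the list), and 55 of these were members. Exactly 300 were at 39 EZH2 peaks (0.18% of the list), of which 35 were partners of members, and 32 members stood at both ceilings. Of the 162 PHF13 peaks at 90% of the ceiling or more, 146 were members. The narrowest peak was 144 bp in the PHF13 list and 150 bp in the EZH2 list, so each ceiling was 2 times the narrowest width. What set the ceiling was not tested. At the ceiling, the fold follows from the background alone: the background ran from 58.9 to 232 and the PHF13 fold from 4.82 down to 1.24, so the deepest summits had low folds. By fragments, 94 of the top 100 PHF13 peaks were members, by fold 34 and by −log10 q 54.

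**Figure D3:**
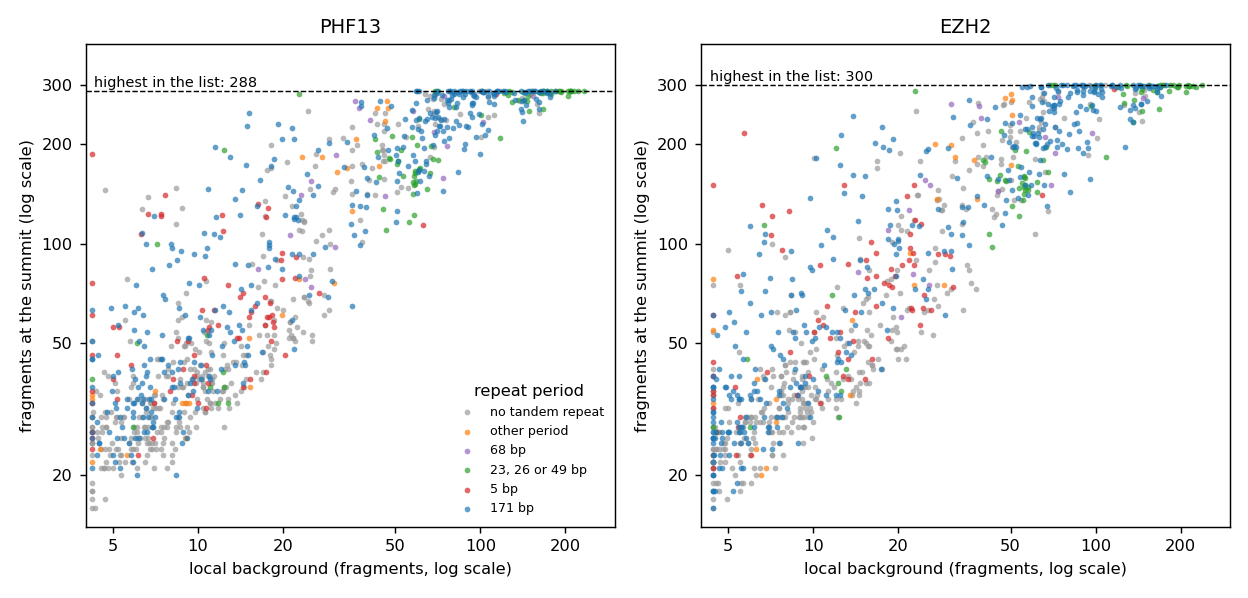
Fragments at the summit (y, log scale) against local background (x, log scale) for members in the PHF13 list (left) and their partners in the EZH2 list (right), coloured by repeat period, with a dashed line at the highest number of fragments in each list. Points pile up at 288 and at 300 fragments for backgrounds from 58.9 upward in the PHF13 list.

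The ceiling was met mostly by 2 classes. Of the 55 members at 288 PHF13 fragments, 31 had an alpha-length period and 20 a period of 23, 26 or 49 bp. Another 4 had no repeat, and no member of the 5 bp or 68 bp class was among them. The weakest, chr16:46391999-46392277, had a PHF13 fold of 1.24 and an EZH2 fold of 1.26, with 288 and 300 fragments over 232 and 237. Its sequence holds 4 exact copies of ATTCC, in capitals, among diverged ones.
chr16:46391995-46392144: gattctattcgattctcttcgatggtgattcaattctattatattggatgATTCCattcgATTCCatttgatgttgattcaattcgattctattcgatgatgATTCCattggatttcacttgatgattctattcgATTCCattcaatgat
The strongest at the ceiling, chr10:42527929-42528326, had 4.82 and 5.12. Of the 98 members in sequence that the assembly holds once, 6 also stood at the ceiling, among them the widest member, chr6:58776244-58779565 (3322 bp), with folds of 2.74 and 2.77 over backgrounds of 105 and 108. The median background was 16.9 in single-copy members (11.8 to 21.0) and 15.2 in multi-copy ones (13.6 to 17.9).

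Between classes the order by fold was not the order by fragments. The median PHF13 fold was 4.39 in the 5 bp class (3.84 to 5.16), 3.78 in the alpha-length class (3.62 to 3.96), 3.72 without a repeat (3.58 to 3.85), 3.71 in the 68 bp class (2.86 to 5.84) and 2.47 in the 23, 26 or 49 bp class (2.08 to 2.74). Only the interval of the 23, 26 or 49 bp class stands apart. The others overlap one another, so their order by fold is not resolved. The 87 members of the 23, 26 or 49 bp class lay on 5 chromosomes, 31 of them after the gap of chromosome 16. Of the 87, 20 stood at the PHF13 ceiling, where the fold follows from the background. Its low fold was not separated from these limits. The median number of fragments was highest in the 23, 26 or 49 bp class, at 211, followed by 185 at 68 bp, 130 in the alpha-length class, 56.5 at 5 bp and 41 without a repeat. The median backgrounds were 67.7, 37.2, 21.9, 10.9 and 10.4 in that order.

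The 5 members with the highest PHF13 fold all had PHF13 backgrounds of at most 7.65 fragments. After the chromosome Y pentamer array, with 186 PHF13 and 215 EZH2 fragments over 4.23 and 5.69, came chrY:59363030-59363417 (25.6 for PHF13, 14.02 for EZH2), whose sequence is masked here, chr21:11186484-11186829 (18.2 and 11.7), chr6:62284025-62284249 (17.4 and 16.2) and the chromosome 10 pentamer array. The highest EZH2 folds included another pentamer array, chr21:10819375-10819739, whose 24-mers occurred 4460 times on 17 chromosomes and where EZH2 reached 27.9 and PHF13 14.7. They also included chr10:42408156-42408407, a repeat with a period of 340 bp, at 15.4 for PHF13 and 16.5 for EZH2. The strongest peak with an alpha-length period, chr20:26317970-26318625, lay 944 bp from the gap and had 15.8 and 16.2. The summit on chromosome 21 had no tandem repeat and 4 copies in the assembly.
chr21:11186554-11186673: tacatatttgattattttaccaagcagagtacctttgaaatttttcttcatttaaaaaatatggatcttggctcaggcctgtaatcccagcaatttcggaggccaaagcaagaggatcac

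Copies of mitochondrial DNA were among the strong members without a repeat. At 6 members (0.614%), part of the 24-mers at the summit also occurred in the mitochondrial genome, against 0 of 710 PHF13-only peaks beside gaps, which allows up to 0.518%, and 1.68% of shared peaks elsewhere. At the chromosome 6 peak named above they were 41.6% of the 24-mers. Another 4 lay together on chromosome 17, 3 of them within 5 kb of the start of MTRNR2L1, a nuclear gene that resembles part of the mitochondrial gene for the large ribosomal RNA. Its strongest peak, chr17:22023680-22023913, lay in an exon and had 147 PHF13 and 100 EZH2 fragments over 8.35 and 7.12, a fold of 15.8 and 12.4. It was the strongest member in single-copy sequence.
The other 2 near that gene had PHF13 folds of 12.4 and 6.30 and EZH2 folds of 7.46 and 4.70. At all 6 the PHF13 fold was the higher of the pair. Whether reads from mitochondria reached these places was not tested.

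Members crowded against the gaps. Within 10 kb of a gap there were 125 members, or 255 per Mb of sequence, from 10 to 50 kb 125 per Mb, from 100 to 250 kb 29.0 per Mb, and from 500 to 1000 kb 7.65 per Mb. All PHF13 peaks, members included, numbered 154 within 10 kb (0.49 Mb of sequence) and 382 from 500 to 1000 kb (21.0 Mb). All EZH2 peaks numbered 140 and 386. Unshared peaks of both lists were also denser within 10 kb than beyond 500 kb, so crowding was not particular to the members. The first 50 kb held 369 members (37.7%), including 49 of the 55 at the ceiling. The median background fell from 71.8 fragments within 10 kb to 9.59 beyond 500 kb, while the median PHF13 fold was 3.05 and 3.94. The share of PHF13 peaks that were members was 81.2% within 10 kb (74.1 to 87.0) and 42.1% beyond 500 kb (37.1 to 47.3). Alpha-length repeats also became rarer with distance, in members from 62.4% within 10 kb to 14.3% beyond 500 kb and in windows from 47.8% to 1.85%.

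**Figure D4:**
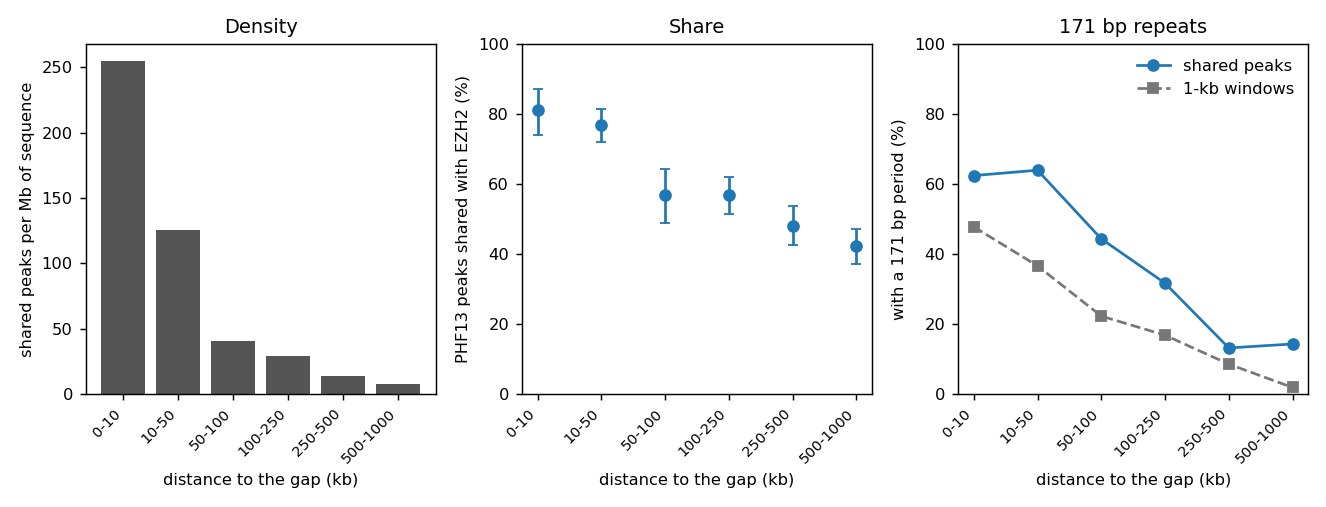
By distance to the gap (kb): members per Mb of sequence (left), share of PHF13 peaks that were shared with EZH2, with exact 95% binomial intervals (middle), and share of members and of 1-kb windows with an alpha-length period (right). Density falls from 255 to 7.65 per Mb, and the members lie above the windows in every bin of the right panel.

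Members were found beside 47 of 49 gap sides with sequence and on all 24 chromosomes, but unevenly. Before the gap of chromosome 4 there were 76 members (79.2% of the PHF13 peaks there), 26 of them with a 5 bp period and none with an alpha-length one. After the same gap there were 0 members and no PHF13 peak, though 10 EZH2 peaks. After the gap of chromosome 7 there were 71, 46 of them with an alpha-length period. The sides after the gaps of chromosomes 10, X and 5 had 66, 47 and 28 members, with 24, 37 and 28 in the alpha-length class. Around the gap of chromosome 1 there were 49 before and 45 after, with 28 and 0 in the alpha-length class. The side after the gap of chromosome 16 had 39 members, 31 of them with a period of 23, 26 or 49 bp. It had the highest median background of the 10 sides with most members (147) and their lowest median fold (1.77 for PHF13, 1.72 for EZH2), but 15 of its members stood at the ceiling and its median of 285 PHF13 fragments was close to it, where the fold follows from the background. Chromosome 13 had 1 member.

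**Figure D5:**
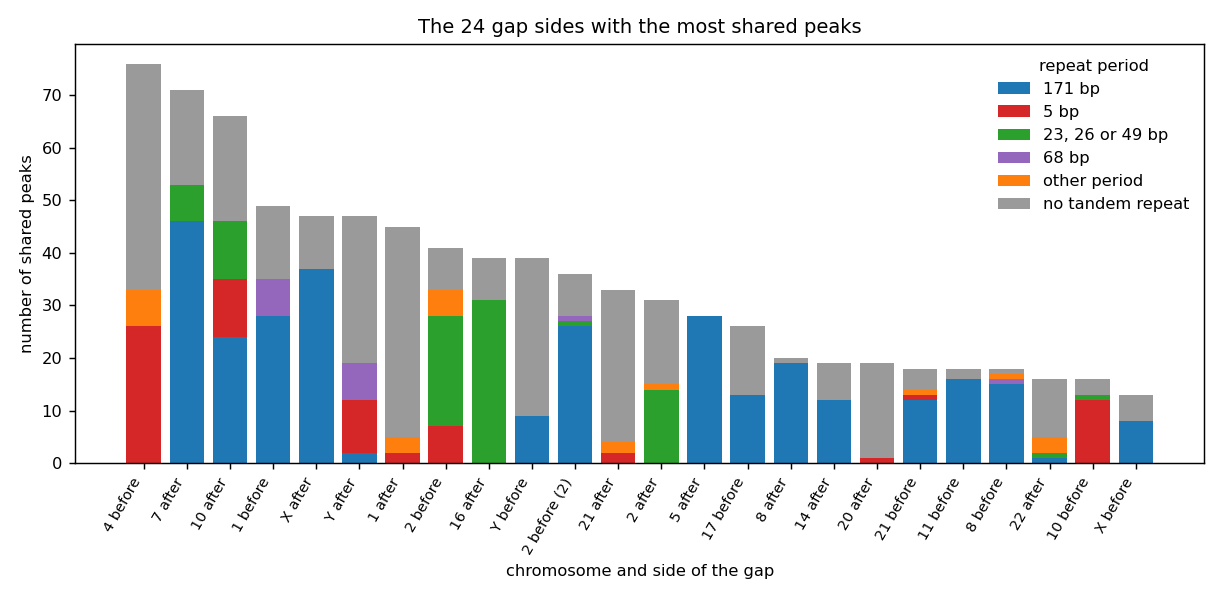
Number of members beside each of the 24 gap sides with the most, before (lower coordinates) or after the gap, by chromosome and repeat period; "2 before (2)" is the second such side on that chromosome, which has more than one large gap. The side before the gap of chromosome 4 has 76 members and that after the gap of chromosome 16 has 39, of which 31 are in the 23, 26 or 49 bp class.

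The strongest member differed in class between sides. It was a pentamer array before the gap of chromosome 4 (chr4:49659509-49659820, 14.8 for PHF13 and 13.2 for EZH2, 297 bp from the gap) and on the short arm of chromosome 2 (chr2:89853117-89853338, 9.32 and 10.9). It was a 49 bp repeat after the gap of chromosome 7 (chr7:61794487-61794727, 14.4 and 14.9). It was an alpha-length repeat before the gap of chromosome 1 (chr1:121458715-121458926, 9.50 and 10.3) and after that of X (14.9 and 12.4). It had no repeat after the gaps of chromosome 1 (chr1:143250957-143251366, 5.89 and 4.73) and chromosome 16 (chr16:46464943-46465157, 9.23 and 7.58) and on the short arm of Y (chrY:10037718-10037944, 13.2 and 10.3).

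Merged within 10 kb, the members formed 269 loci, 138 of them with a single peak. The 22 loci with at least 10 peaks held 454 members (46.4%). The largest, chrX:61682271-61734238, held 36 peaks over 52.0 kb, 26 of them with an alpha-length period, at a median PHF13 fold of 3.42 and a median background of 73.4. A locus of 33 peaks at chr16:46385904-46435545 had a median fold of 1.61, a median background of 171.4 and 15 peaks at the ceiling. Another of 33 at chr4:49271826-49333572 had a median fold of 4.64, a background of 26.2 and none at the ceiling. With 1 peak per locus, the one of highest PHF13 fold, the median PHF13 fold was 4.88, the median background 7.24 and the share in tandem repeats 47.96%. That choice by itself favours high fold and low background.

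Few members lay in genes. Of the summits, 892 (91.2%, 89.3 to 92.9) were intergenic, 62 in introns and 24 in exons, whereas 69.8% of PHF13-only peaks and 67.5% of EZH2-only peaks beside gaps and 44.8% of shared peaks elsewhere were intergenic. A transcription start site lay within 5 kb of 152 members (15.5%, 13.3 to 18.0), against 32.7% of PHF13-only peaks, a difference of -17.2 points (-21.3 to -13.1). Of those start sites 47 belonged to processed and 37 to unprocessed pseudogenes. Members lay a median of 120758 bp from the gap and PHF13-only peaks 283356 bp. Shares in genes and near start sites were not compared at like distance. The start of a protein-coding gene lay within 5 kb of 5 members (0.511%, 0.166 to 1.19), against 4.92% of PHF13-only peaks, 5.18% of EZH2-only peaks and 22.8% of shared peaks elsewhere. These were the 3 at MTRNR2L1, 1 at NINL, which encodes a centrosomal protein (4.63 and 3.14), and 1 at TRIM48, of a family of tripartite motif proteins (3.99 and 4.55, an alpha-length repeat). The strongest member on the short arm of Y overlapped RNA5-8SP6, a pseudogene of the 5.8S ribosomal RNA.

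Of 1496 genes beside the gaps, 57 (3.81%) held a member. Of the 155 protein-coding ones, 4 did: MTRNR2L1, NINL, NOTCH2, which encodes a Notch receptor, with 3 intronic peaks (highest 3.22 for PHF13 and 3.32 for EZH2), and POTEH, of a primate gene family with ankyrin repeats (4.08 and 2.95). NOTCH2 and POTEH have near-identical relatives, and whether reads at these peaks came from another copy was not tested. Noncoding genes held more: ENSG00000286033 on chromosome 21 had 8 members, highest at 5.68 for PHF13, and the lincRNA RP11-782C8.1 on chromosome 1 had 6, highest at 5.55. Of the gene families listed for these regions, a member lay in MTRNR2L1, in 1 of 7 POTE genes, in 3 of 7 ANKRD20A pseudogenes and in BAGE2, FRG1BP and CDC27P2. None lay in the genes beside gaps of other listed families: 27 ZNF, 5 FRG2, 3 TPTE, 3 FAM27, 2 ANKRD26P, 1 KCNJ12 and 1 CNTNAP3. Apart from those in MTRNR2L1, the strongest lay in ANKRD20A17P on chromosome 4 (6.90 and 4.44).

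The 3 members just inside the limit of 1 Mb lay at 998119 to 999236 bp and had PHF13 folds between 2.71 and 6.69. The 3 nearest shared peaks outside, at 1003161 to 1004574 bp, had 3.59, 2.57 and 3.47. The outside peak on chromosome 1, chr1:143539230-143539406, lay in the same stretch as the inside one, chr1:143534671-143534814.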

How the data were processed

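The members, lists and classes were chosen with earlier results of these data known. By the study's methods, the authors trimmed reads with Trim Galore 0.4.1, aligned them to hg19 with Bowtie2 2.4.1 at default settings, took out duplicates (Picard) and ran MACS2 2.2.7.1 on each library against the input, a library whose reads were not analysed here. Bowtie2 by default reports 1 place per read, so a read from a repeat has 1 of its possible places. The deposited columns are fold enrichment (a ratio), −log10 p and −log10 q, and a score that the authors' caller derives from them. The EZH2 list is in narrow format, although the methods describe broad peaks. Both lists also hold peaks of weaker q than the limit the methods give for PHF13.

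Fold and −log10 p were solved for whole fragments and background, within a relative error of 0.0001, for 100% of peaks in both lists. Total read numbers are unknown. Repeats were found from the identity of the 1000 bp at a summit with itself, shifted by 2 to 400 bp (at least 50%). The 5 bp class needed at least 10 pentamers in 500 bp. Multi-copy means a median 24-mer count above 1 in 100 bp. Genes are from GENCODE 44. Masked ends of chromosome Y were not counted as gaps. Shares have exact binomial intervals, differences Newcombe intervals and medians order-statistic intervals. Named peaks were the strongest of all, by class, by gap side and in single-copy sequence, the nearest to the limit, and those at coding genes or in a listed set of gene families. Others were chosen after their values were seen. The scripts (Python 3.11.15, numpy 2.4.6, pandas 2.3.3, scipy 1.17.1) were tested on simulated data. Alternatives changed the gap size, distance, overlap, q limit and repeat settings. The sequence at 1 named peak is not reported here.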

Additional observations from a re-analysis of the deposited data

How the results depend on the processing

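With 1 library per antibody, neither the spread between libraries nor the effect of leaving one out can be given, and depth is known only as fragments at summits. No paired analysis was possible because no group has more than 1 library. Of 88 alternative values for 11 results, 52 moved beyond the interval of the value reported and are given here. The number of members, which has no interval, ran from 665 (under 250 kb from the gap) to 1068 (under 2 Mb), with 784 at a −log10 q of at least 5. Exclusion of peaks at 90% of the ceiling or more, and restriction to a background under 2 times the floor, were chosen after seeing the data. The cause of each move was not tested, beyond what the smaller or larger set of peaks fixes.

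The share of PHF13 peaks beside gaps that were shared was 67.0% under 250 kb from the gap, 62.5% under 500 kb and 51.5% under 2 Mb. It was 51.4% when at least 50% of each peak had to overlap, 62.6% at a −log10 q of at least 3 and 68.6% at 5. Under 250 kb, the median EZH2 fold was 3.59, the background 21.7, the fragments 110, the tandem share 70.5% and the share within 5 kb of a start site 9.77%. At a −log10 q of at least 5, the PHF13 fold was 3.95, the EZH2 fold 4.03, the background 20.9, the fragments 115, the tandem share 68.6%, the start site share 12.3% and the summit distance 11 bp. With 1 peak per locus they were 4.88, 4.48, 7.24, 39, 47.96%, 24.5% and 18 bp, and the width was 223 bp. Without peaks at 90% of the ceiling or more, the folds were 3.86 and 3.88, the background 11.6, the fragments 53, the tandem share 55.8%, the summit distance 17 bp and the width 225 bp. Under 2 times the floor, the folds were 4.67 and 4.43, the background 6.03, the fragments 30, the tandem share 47.7%, the start site share 23.2%, the multi-copy share 93.7%, the summit distance 20 bp and the width 204 bp. With an overlap of at least 50%, the fragments were 84. Without chromosome Y, the multi-copy share was 92.8% and the start site share 12.5%. The multi-copy share was 74.0% by 36-mers and 99.4% for any repeated 24-mer. The tandem share was 67.7% at 40% identity, 37.7% at 60% and 66.3% in 500 bp. The start site share was 4.601% within 1 kb and 0.511% for coding genes.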
